A study of Homo sapiens with 6 samples.

Results

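The genes described here encode the chaperones of the endoplasmic reticulum (ER) and the unfolded protein response. The list held 38 genes by name, and a gene was measured when at least 1 probe set carried its symbol alone. This gave 37 genes of 19775 on the array. SYVN1, the ubiquitin ligase of ER-associated degradation, was not measured, as its probe set is annotated to a microRNA gene as well. Where a gene had several probe sets, the one with the highest mean log2 value stands for it. The cells were SW-1990, an established line of human pancreatic adenocarcinoma that came from a metastasis in the spleen. Lentivirus delivered either a scrambled short hairpin RNA (sh-Ctrl) or one against PRLR, the prolactin receptor (sh-PRLR), and puromycin was applied to both groups. Affymetrix arrays were run on 3 samples of each group, named as biological replicates in the labels. Whether they came from separate infections, and whether the lines are pools or clones, was not stated in the labels, so p-values measure the spread between these arrays. Values are log2 expression with the SD over 3 arrays, and a difference is the sh-PRLR mean less the sh-Ctrl mean, with its SE from limma where given.

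Secreted and membrane proteins enter the ER through the SEC61 channel, fold with the help of chaperones, lectins and disulfide isomerases, and leave in COPII vesicles. Proteins that fail to fold are sent back to the cytosol for degradation. Unfolded proteins in the ER are sensed by IRE1 (gene ERN1), ATF6 and PERK (gene EIF2AK3). IRE1 splices the XBP1 messenger RNA, ATF6 is cut in the Golgi to release a transcription factor, and PERK slows translation and favours that of ATF4. Exocrine pancreas cells make large amounts of secreted protein and depend on this system.

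Of the 37 measured genes, 11 rose in sh-PRLR and 0 fell (limma with intensity-dependent variance, adjusted p under 0.05 over all genes). Over all genes, 3.34% rose and 4.32% fell, 7.66% in either direction, against 29.7% of the 37. Among the genes above the median level, where 36 of the 37 lie, 6.43% rose and 8.17% fell. The 11 were the sensors ERN1 and ATF6, the transcription factor XBP1, the chaperone genes HSPA5, DNAJB9, MANF and CANX, the degradation genes EDEM1, HERPUD1 and SELENOS, and the channel subunit gene SEC61B. Their differences ran from 0.15 for CANX to 0.85 for ATF6, which is 1.11-fold to 1.80-fold. All 6 disulfide and prolyl isomerase genes missed the threshold. With shares this low over all genes, 0 of 6 does not set them apart. Over the 37 genes 28 differences were above 0 and the median was 0.05, against a median of -0.0013 over all genes. In 15 genes every sh-PRLR array lay above every sh-Ctrl array, against 11.7% of all genes, and in 2 every sh-PRLR array lay below, against 14.1%. Of the 9887 genes above the median level, 1656 were separate in this way as higher and 2190 as lower, which are larger shares.

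The number of calls depends on how the variance and the array scale are modelled. With limma's default settings, which give all levels 1 prior variance, 0 of the 37 passed, against 0.0202% of all genes, while 11 were higher and 1 lower at an unadjusted p under 0.05. The shares of all genes at that unadjusted limit were 7.19% higher and 9.04% lower. Of the 9887 genes above the median level, 952 were higher and 1344 lower, which are larger shares. When each array was centred on its median, 2 of the 11 passed, ERN1 and ATF6, and over all genes 143 rose and 361 fell in place of 660 and 854. The mean over the 37 genes was 11.61, 11.64 and 11.65 on the sh-Ctrl arrays and 11.77, 11.73 and 11.70 on the sh-PRLR arrays. These means did not overlap between groups. The mean over all genes was 7.37, 7.34 and 7.31 against 7.28, 7.35 and 7.44, which overlapped.

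**Figure D1:**
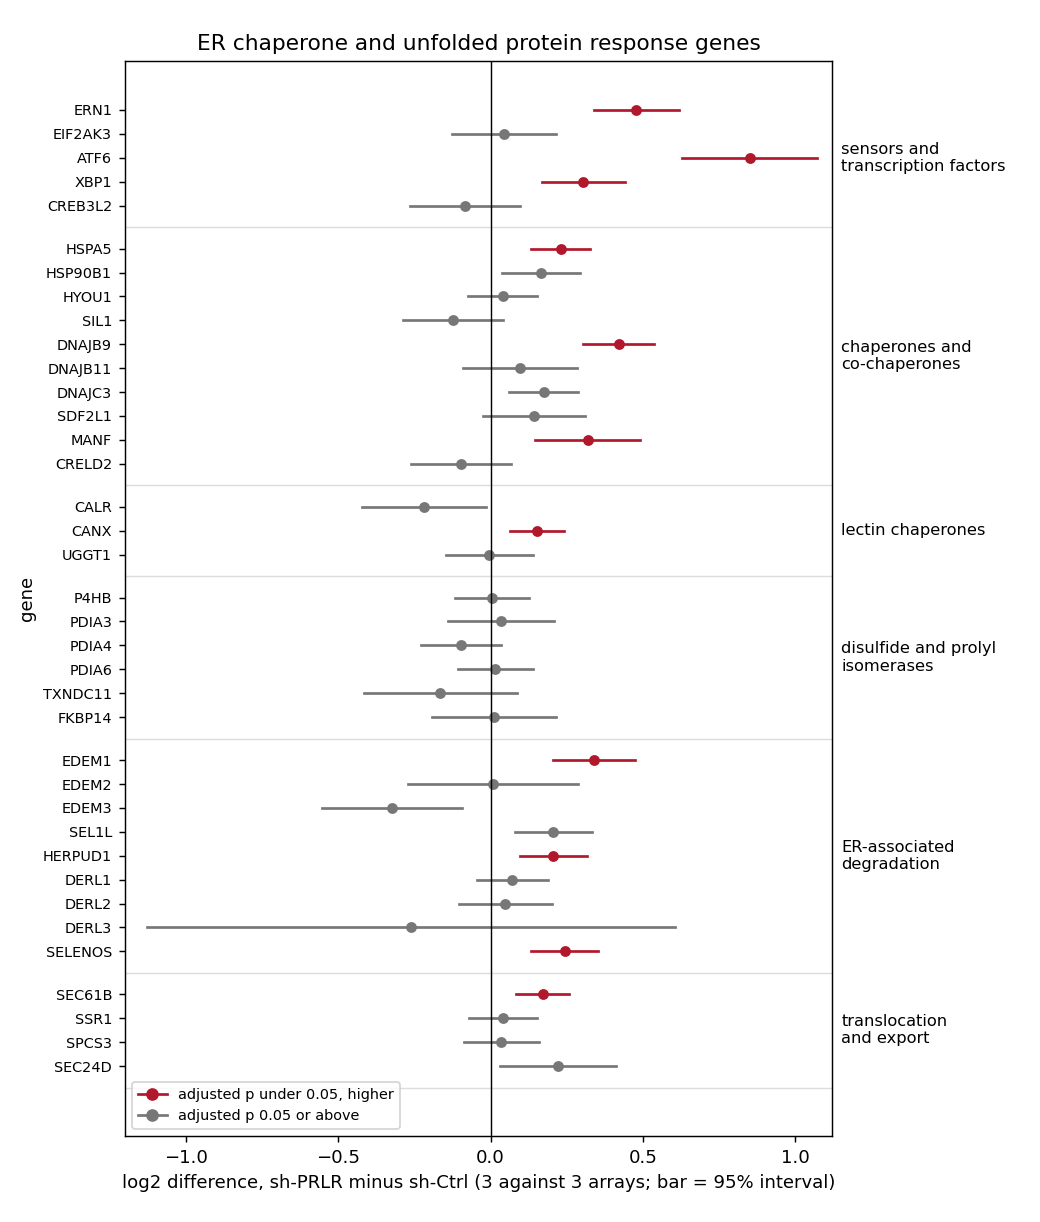
Log2 difference between sh-PRLR and sh-Ctrl (3 against 3 arrays) for the 37 genes, grouped by role, with 95% intervals from limma. The 11 red genes had an adjusted p under 0.05 and all lie to the right of 0, with ATF6 at 0.85, while the 6 isomerase genes lie between -0.16 and 0.03.

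PRLR itself, the targeted gene, was read by 7 probe sets, all with a lower mean in sh-PRLR. Their average was 5.02 ± 0.22 in sh-Ctrl against 4.17 ± 0.22 in sh-PRLR, lower by a log2 difference of -0.85. An exact two-sided permutation test gave p = 0.1, and 3 against 3 arrays cannot give a smaller one. Its brightest probe set differed by -0.23 and did not pass (limma adjusted p = 0.811). The epithelial markers KRT8, KRT18, KRT19, EPCAM and CDH1 were bright, with 12.60 for KRT19 in sh-Ctrl as the lowest group mean of these 5, and KRT7 was near the median gene level of 7.23. CDH1, the epithelial cadherin, fell by 0.17 (limma adjusted p = 0.0284), from 13.96, 14.00 and 14.04 to 13.80, 13.84 and 13.84, without overlap. Of 21 measured markers of acinar, endocrine, fibroblast, blood and endothelial cells, 2 lay above that level, COL1A1 and PECAM1. The acinar marker CEL, a lipase gene, read 6.09, 5.51 and 5.09 on the sh-Ctrl arrays, against 2.87, 3.11 and 1.45 with sh-PRLR, and fell (limma adjusted p = 0.0316). Of the other acinar markers, CPA1 (-1.82) and CPB1 (-0.82) were lower in mean and PNLIP (0.32) was higher. Their arrays overlapped between groups and they did not pass. The mean of the 4 acinar markers ran from 3.80 to 4.22 in sh-Ctrl and from 2.46 to 2.72 in sh-PRLR. The mean of the endocrine markers ran from 2.19 to 2.28 and from 2.67 to 3.94, and that of the fibroblast markers from 5.21 to 5.32 and from 4.50 to 5.11, also without overlap. Among the endocrine genes only GCG was separate between groups (means of 0.73 and 3.28), and it did not pass (limma adjusted p = 0.186). Each fibroblast gene by itself overlapped. The means of the epithelial, blood and endothelial markers overlapped between groups. The part of these marker levels in the results below was not tested.

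Several of these genes share a promoter element, so the promoter stretches that hold it are shown for genes that rose and for genes that did not. The ER stress element (ERSE), the site of ATF6 together with the CCAAT-binding factor NF-Y, was searched as CCAAT and CCACG with any 9 bases between them. ERSE-II was searched as ATTGG and CCACG with any 1 base between them, and an XBP1 and ATF6 site (UPRE) as TGACGTGG, all on both strands. The windows were RefSeq promoters of GRCh38.p14, from 250 bases before the start site to 50 after it, and 33 of the 38 genes had one. DERL1, DERL3, FKBP14, SEC24D and PDIA3 did not. Capitals mark the matches, and a match on the opposite strand reads in its reverse complement.
HSPA5, chr9:125241294-125241593, minus strand: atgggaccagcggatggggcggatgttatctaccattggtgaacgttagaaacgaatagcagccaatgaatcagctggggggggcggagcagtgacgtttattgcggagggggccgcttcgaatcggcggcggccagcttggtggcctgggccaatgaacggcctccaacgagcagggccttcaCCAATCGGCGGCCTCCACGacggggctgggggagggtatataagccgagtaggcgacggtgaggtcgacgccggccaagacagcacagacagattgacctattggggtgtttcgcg
XBP1, chr22:28800578-28800646, minus strand: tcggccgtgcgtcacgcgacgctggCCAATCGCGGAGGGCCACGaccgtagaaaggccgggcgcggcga
CANX, chr5:179698753-179698821, plus strand: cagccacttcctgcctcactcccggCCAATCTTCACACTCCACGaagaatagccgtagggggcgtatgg
HERPUD1, chr16:56932000-56932060, plus strand: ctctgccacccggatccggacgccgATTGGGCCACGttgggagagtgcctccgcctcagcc
CALR, chr19:12938359-12938427, plus strand: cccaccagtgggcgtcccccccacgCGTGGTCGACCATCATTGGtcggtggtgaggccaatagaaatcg
CRELD2, chr22:49918529-49918597, plus strand: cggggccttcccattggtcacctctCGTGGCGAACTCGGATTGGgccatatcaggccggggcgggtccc
HYOU1, chr11:119057249-119057418, minus strand: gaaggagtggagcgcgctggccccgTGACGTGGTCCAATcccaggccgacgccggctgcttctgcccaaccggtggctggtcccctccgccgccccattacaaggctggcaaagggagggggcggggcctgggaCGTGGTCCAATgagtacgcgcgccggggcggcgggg

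The ERSE letters were present in the windows of 7 of the 33 genes, XBP1, HSPA5, HSP90B1, CRELD2, CALR, CANX and PDIA6. Over all 35116 windows 27 held them, which is 0.0769%, and these 27 belonged to 25 genes. Counted by gene, that is 0.0916% of 27305 genes with a window, against 21.2% of the 33. ERSE-II was present in HERPUD1, HYOU1 and SDF2L1, 9.09% of the 33, against 0.0696% of all genes with a window and 0.0541% of all windows. UPRE was present in HYOU1 and TXNDC11, 6.06% of the 33, against 0.927% of all genes with a window and 0.729% of all windows. In HYOU1 the UPRE match and 1 of the 2 ERSE-II matches overlap. In HSPA5 the ERSE lies from -66 to -48 bases relative to the start site, in XBP1 from -52 to -34, and in HERPUD1 the ERSE-II lies from -117 to -107. CANX has 3 start sites in the table whose windows hold the same ERSE stretch. Of the 10 genes with an ERSE or ERSE-II match, 4 rose, HSPA5, XBP1, CANX and HERPUD1. Of the other 22 measured genes with a window, 7 rose. The elements were searched because they are known from genes of this response. Their higher shares among the 33 are thus a description and no test. A match is a description of these letters, and factor binding was not measured.

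**Figure D2:**
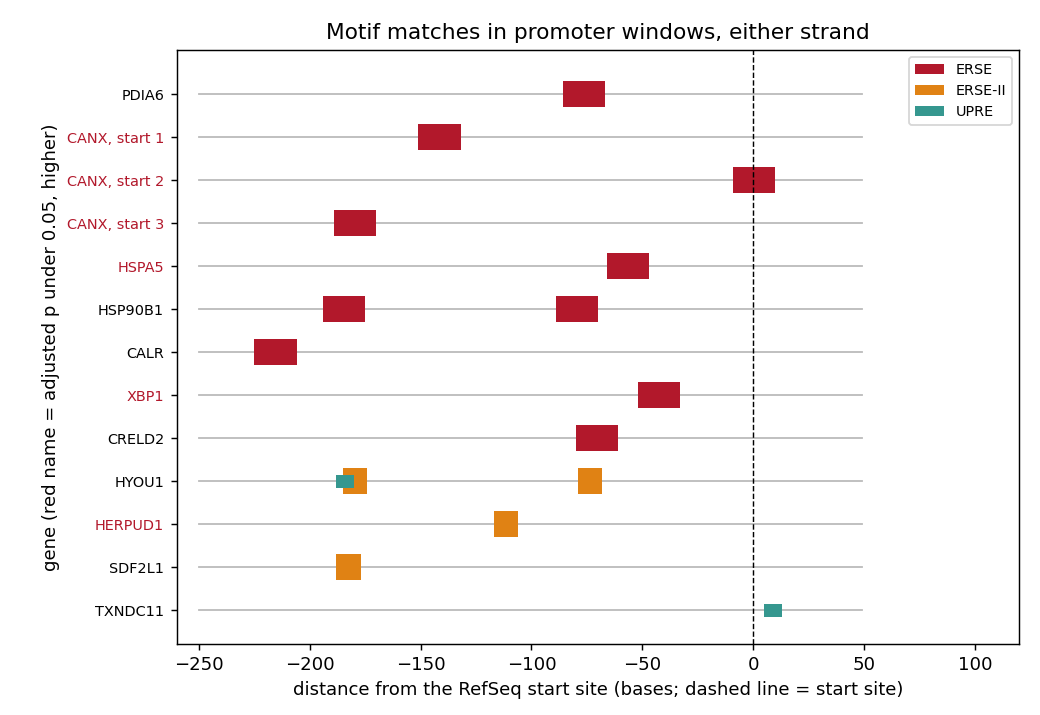
Positions of ERSE, ERSE-II and UPRE matches on either strand in RefSeq promoter windows, as distance in bases from the start site (dashed line); grey lines are windows and genes with a red name rose. Matches lie before the start site except in TXNDC11 and at 1 of the 3 CANX start sites, and genes that rose (HSPA5, XBP1, CANX, HERPUD1) and genes that did not (CALR, CRELD2, HYOU1) both hold them.

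Among the sensors, ATF6 had the largest difference of the 37 genes. Its probe set 226941_at read 9.26, 9.56 and 9.25 with the control hairpin and 10.17, 10.16 and 10.29 with sh-PRLR. The lowest sh-PRLR array lay 0.60 above the highest sh-Ctrl array. ATF6 rose by 0.85 (SE 0.10, limma adjusted p = 0.000902). The probe set 231927_at rose by 1.01 (limma adjusted p = 0.000873 among the 41091 probe sets), from 7.91, 7.98 and 7.82 to 8.90, 8.97 and 8.87. The other ATF6 probe sets, 203952_at (0.25) and 217550_at (-0.05), overlapped between groups and did not pass. Of these, 203952_at was nearly as bright as 226941_at, with means over all arrays of 9.76 and 9.78, so the choice between them was close. When the 4 probe sets were averaged, the difference was 0.51 and ATF6 no longer passed (limma adjusted p = 0.0696).

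ERN1 encodes IRE1, the kinase and endoribonuclease that splices XBP1. It read 10.36, 10.44 and 10.33 on control arrays, against 10.88, 10.87 and 10.82 on sh-PRLR arrays, with no overlap. It rose by 0.48 (SE 0.06, limma adjusted p = 0.00152), or 1.39-fold. Its dimmer probe sets 235745_at (-0.04) and 207061_at (0.29) did not pass, and the mean of the 3 gave a difference of 0.24 with a limma adjusted p = 0.374. EIF2AK3, which encodes PERK, read 10.87, 10.77 and 10.78 on the sh-Ctrl arrays, against 11.01, 10.76 and 10.78 with sh-PRLR. One sh-PRLR array was above all others and the remaining arrays were mixed. The difference was 0.04 with a 95% interval from -0.13 to 0.22 (limma adjusted p = 0.817). Whether EIF2AK3 differs from ATF6 and ERN1 in its response was not tested.

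XBP1, the transcription factor downstream of IRE1, read 13.00, 12.84 and 13.01 with the control hairpin and 13.36, 13.19 and 13.22 with sh-PRLR. It rose by 0.30 (SE 0.06, limma adjusted p = 0.0143), or 1.23-fold, without overlap. Without sh-Ctrl replicate 2 it no longer passed (limma adjusted p = 0.0719). Spliced and unspliced XBP1 were not told apart here. Its other probe set lay far below the median gene level and scattered from 0.09 to 5.70. CREB3L2, an ER-bound transcription factor of the ATF6 type, was at 10.34 ± 0.07 and 10.26 ± 0.13 (difference -0.08, interval -0.26 to 0.10, limma adjusted p = 0.642).

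**Figure D3:**
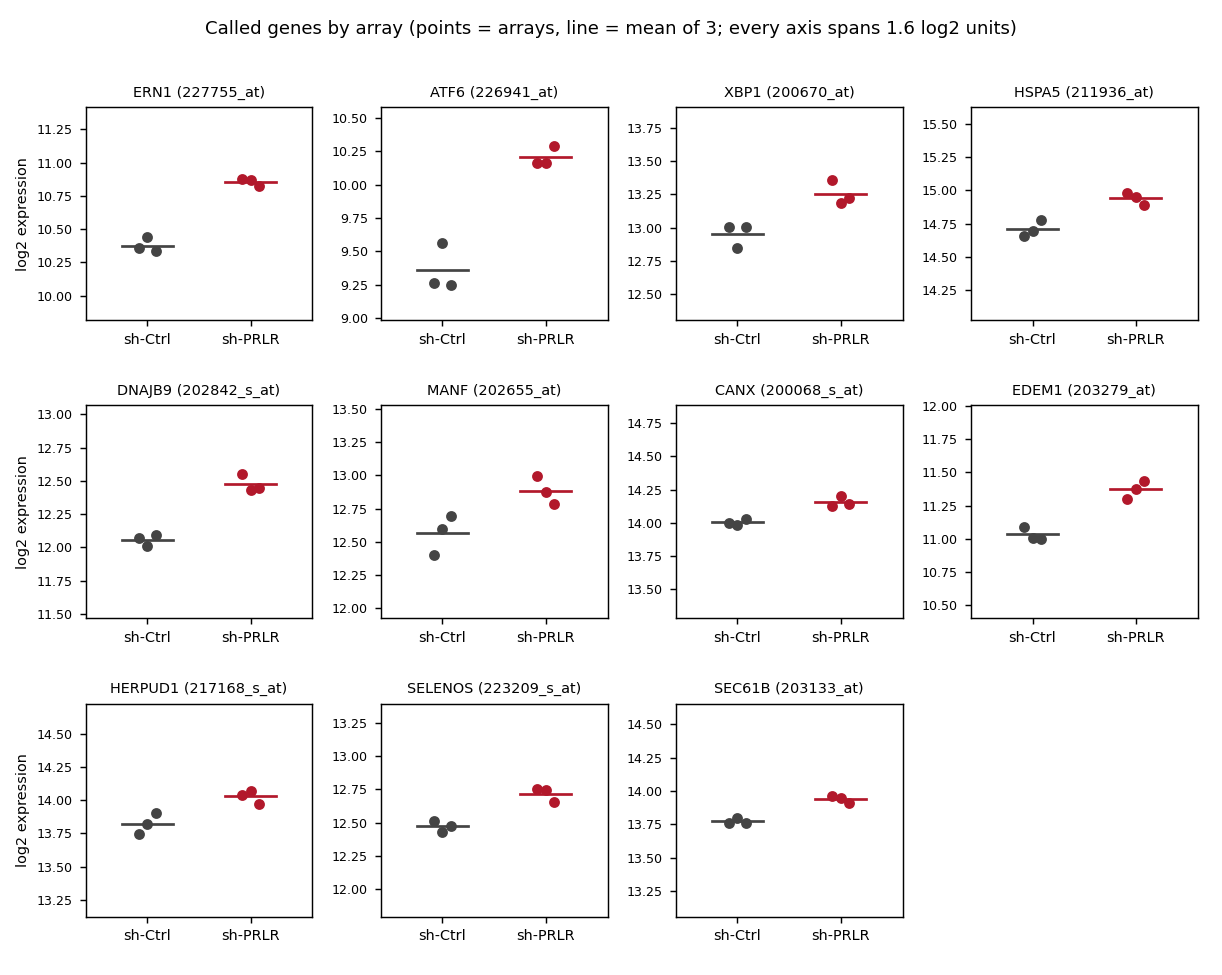
Log2 expression of the 11 genes that rose, with each point 1 array and each line the mean of 3; every panel spans 1.6 log2 units. In all 11 panels the sh-PRLR points lie above the sh-Ctrl points, with the widest gap for ATF6 and narrow gaps for HERPUD1 and MANF.

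Of the 10 chaperone and co-chaperone genes 3 rose, HSPA5, DNAJB9 and MANF, and the median of the 10 was 0.15. HSPA5 encodes BiP, the main HSP70 of the ER, which also holds the sensors inactive. It read 14.66, 14.69 and 14.78 on control arrays, against 14.98, 14.95 and 14.89 on sh-PRLR arrays, and rose by 0.23 (SE 0.04, limma adjusted p = 0.0105). Its dimmer probe set 230031_at rose by 0.74 (limma adjusted p = 0.00296 among the 41091 probe sets), from 9.28, 9.23 and 9.50 to 10.05, 9.94 and 10.22. The groups were separate on both probe sets, and the dimmer one gave the larger difference. How far the bright probe set can still respond at its level was not tested. HSPA5 no longer passed without sh-Ctrl replicate 2 (limma adjusted p = 0.0629).

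DNAJB9, or ERdj4, a J-domain partner of BiP, read 12.07, 12.01 and 12.09 on the sh-Ctrl arrays, against 12.55, 12.43 and 12.45 with sh-PRLR. It rose by 0.42 (SE 0.05, limma adjusted p = 0.00128), or 1.34-fold. Its probe set 202843_at rose by 0.54 (limma adjusted p = 0.00112 among the 41091 probe sets), while 1554462_a_at differed by 0.16 and did not pass. Without _x_at and _s_at probe sets DNAJB9 was no longer called, at a difference of 0.16 (limma adjusted p = 0.397). DNAJB9, ERN1, ATF6 and EDEM1 were the 4 genes of the 11 that passed whichever array was left out. MANF, a secreted ER stress protein, read 12.40, 12.60 and 12.69 with the control hairpin and 13.00, 12.87 and 12.79 with sh-PRLR. It rose by 0.32 (SE 0.08, limma adjusted p = 0.0326), with a gap between groups smaller than the spread within them. The call for MANF was lost without sh-Ctrl replicate 1 or 2 and without sh-PRLR replicate 1 or 2 (limma adjusted p up to 0.104).

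HSP90B1, the HSP90 of the ER (GRP94), and DNAJC3, an inhibitor of PERK and a J-domain protein, had every sh-PRLR array above every sh-Ctrl array without passing. HSP90B1 was at 13.33 ± 0.12 and 13.49 ± 0.01, a difference of 0.16 (limma adjusted p = 0.126). DNAJC3 was at 12.48 ± 0.03 and 12.65 ± 0.07, a difference of 0.17 (limma adjusted p = 0.0677). The BiP exchange factor genes HYOU1 (0.04) and SIL1 (-0.12), the J-domain gene DNAJB11 (0.10) and its partner SDF2L1 (0.14) did not pass. CRELD2, a further ER stress protein with an ERSE, was at 11.10 ± 0.08 and 11.00 ± 0.12 (difference -0.10, interval -0.26 to 0.07). SIL1 was 1 of the 2 genes with all sh-PRLR arrays below all sh-Ctrl arrays, at 9.93, 10.01 and 10.04 against 9.89, 9.91 and 9.81.

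The lectin chaperones calnexin (CANX) and calreticulin (CALR) bind glycoproteins that carry a terminal glucose, which UGGT1 adds back to those not yet folded. CANX read 14.00, 13.99 and 14.03 on control arrays, against 14.13, 14.20 and 14.14 on sh-PRLR arrays. The groups did not overlap, and CANX rose by 0.15 (SE 0.04, limma adjusted p = 0.0450), the smallest difference among the genes called. Of its 5 probe sets 4 were higher in sh-PRLR on every array, and 2 passed. CANX was lost in 10 of the 15 alternative settings, with a limma adjusted p of up to 0.935 (mean of all probe sets). Among them were 5 of the 6 that leave out 1 array (all but sh-PRLR replicate 1), where the limma adjusted p reached 0.180. CALR was at 12.74 ± 0.18 and 12.52 ± 0.14, lower by -0.22 without passing (interval -0.42 to -0.01, limma adjusted p = 0.210), and its 3 probe sets were all lower in mean. UGGT1 differed by -0.0045, with an interval from -0.15 to 0.14.

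None of the 6 disulfide and prolyl isomerase genes passed on its brightest probe set, and their arrays overlapped between groups. P4HB, the classical protein disulfide isomerase, was at 13.84 ± 0.10 and 13.84 ± 0.05, with an interval of the difference from -0.12 to 0.13. For PDIA3, the isomerase that works with the lectin chaperones, the interval was -0.14 to 0.21, for PDIA4 it was -0.23 to 0.03, and for PDIA6, which also turns off IRE1, -0.11 to 0.14. TXNDC11, an ER thioredoxin-like protein, differed by -0.16 and FKBP14, a prolyl isomerase of collagen folding, by 0.01. P4HB had 1 dimmer probe set that passed, 1564494_s_at, at 9.31, 9.12 and 9.55 on the sh-Ctrl arrays, against 9.83, 9.84 and 9.89 with sh-PRLR (0.53, limma adjusted p = 0.0214 among the 41091 probe sets). The remaining dimmer probe sets did not pass. They differed by 0.25 for P4HB and by 0.02, -0.03 and 0.15 for PDIA6. For PDIA3 the differences were -0.07 and -0.21, for PDIA4 0.07, and for FKBP14 0.14 and -0.09. Of these, PDIA6 216640_s_at (0.15) was separate between groups.

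**Figure D4:**
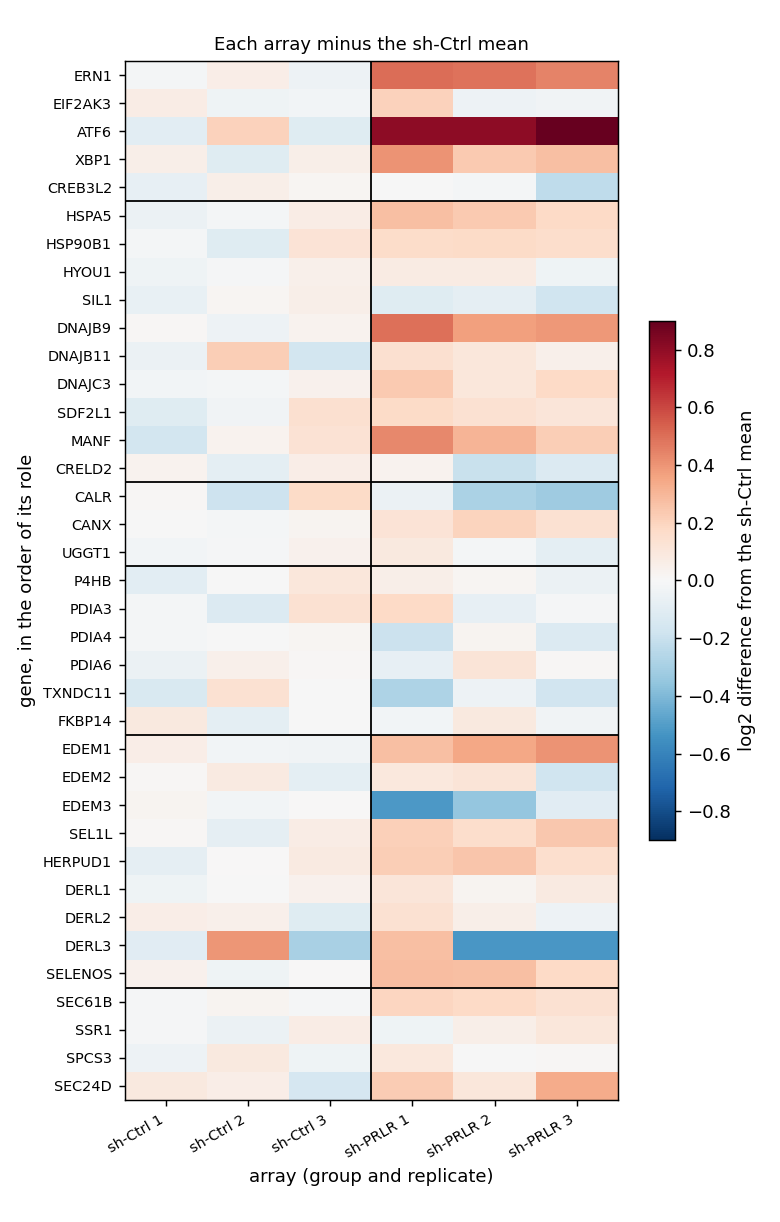
Log2 value of each array minus the sh-Ctrl mean, for the 37 genes in the order of their roles (black lines between roles) and the 6 arrays. The 3 sh-PRLR columns are red for ERN1, ATF6, XBP1, DNAJB9 and EDEM1, near white for P4HB, PDIA6 and HYOU1, and blue for EDEM3.

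Of 9 measured genes of ER-associated degradation 3 rose. EDEM1, a lectin that directs misfolded glycoproteins to degradation, read 11.09, 11.01 and 11.00 with the control hairpin and 11.30, 11.38 and 11.44 with sh-PRLR. It rose by 0.34 (SE 0.06, limma adjusted p = 0.00760), or 1.27-fold. EDEM2, its relative, was at 8.44 ± 0.09 and 8.45 ± 0.17 (difference 0.0086, interval -0.27 to 0.29). EDEM3, the third of the family, read 9.99, 9.94 and 9.97 on control arrays, against 9.45, 9.62 and 9.87 on sh-PRLR arrays, all lower. The difference of -0.32 missed the threshold (limma adjusted p = 0.0937). EDEM3 passed as lower when the 40% of genes with the lowest mean were left out (limma adjusted p = 0.0496) and without sh-PRLR replicate 3 (limma adjusted p = 0.0293). The other EDEM3 probe sets, 223243_s_at (-0.26) and 220342_x_at (0.10), were of unlike sign, overlapped between groups and did not pass. EDEM1 and EDEM3 thus had differences of unlike sign on the probe sets in use, but those of EDEM3 disagreed. The difference between the EDEM genes was not tested.

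HERPUD1, or HERP, a membrane organiser of the degradation complex, read 13.74, 13.82 and 13.90 on the sh-Ctrl arrays, against 14.04, 14.07 and 13.97 with sh-PRLR. It rose by 0.21 (SE 0.05, limma adjusted p = 0.0323), with a gap of 0.07 between groups. Its call was lost without sh-Ctrl replicate 1 or 2 and without sh-PRLR replicate 1 or 2 (limma adjusted p up to 0.127). SELENOS, a selenoprotein that recruits the p97 ATPase to derlins, read 12.51, 12.43 and 12.48 with the control hairpin and 12.75, 12.75 and 12.65 with sh-PRLR, and rose by 0.24 (SE 0.05, limma adjusted p = 0.0142). Its call was lost without sh-Ctrl replicate 2 or sh-PRLR replicate 2 (limma adjusted p up to 0.0802). SEL1L, the partner of the ligase SYVN1, was at 11.65 ± 0.08 and 11.86 ± 0.04 without overlap. Its difference of 0.21 missed the threshold (limma adjusted p = 0.0556). The derlin genes DERL1 (0.07), DERL2 (0.05) and DERL3 (-0.26), whose proteins form part of the membrane channel, did not pass. DERL3 was the dimmest of the 37 probe sets in use, with arrays from 5.33 to 6.25. The second probe set of DERL2, 226719_at, rose by 0.70 (limma adjusted p = 0.0191 among the 41091 probe sets).

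In translocation and export, SEC61B, a subunit of the protein channel, read 13.76, 13.79 and 13.76 on control arrays, against 13.96, 13.95 and 13.91 on sh-PRLR arrays. It rose by 0.17 (SE 0.04, limma adjusted p = 0.0253), and the gap between groups was wider than the range within either. SEC61B was lost in 10 of the 15 alternative settings, with a limma adjusted p of up to 0.584. Among them were 5 of the 6 that leave out 1 array (all but sh-PRLR replicate 3), where the limma adjusted p reached 0.0923. SEC24D, a cargo adaptor of COPII vesicles, was at 10.46 ± 0.13 and 10.68 ± 0.12, separate between groups but not past the threshold (0.22, limma adjusted p = 0.169). SSR1, of the translocon-associated complex, differed by 0.04, with an interval from -0.07 to 0.15. SPCS3, of the signal peptidase, differed by 0.04, with an interval from -0.09 to 0.16. SSR1 has 6 probe sets, all higher in mean in sh-PRLR, and 1 of them, 225435_at, rose by 0.35 (limma adjusted p = 0.0119 among the 41091 probe sets).

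Over all 95 probe sets of the 37 genes, 18 rose and 0 fell, against 2.17% and 2.5% of all 41091 probe sets with 1 gene symbol. Besides the 11 in use, these were 7 further probe sets, of ATF6, HSPA5, DNAJB9, CANX, P4HB, DERL2 and SSR1. Of the 27 genes with several probe sets, 13 had the same sign on all of them. Probe sets of 1 gene share their RNA and are not replicates of the comparison.

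**Figure D5:**
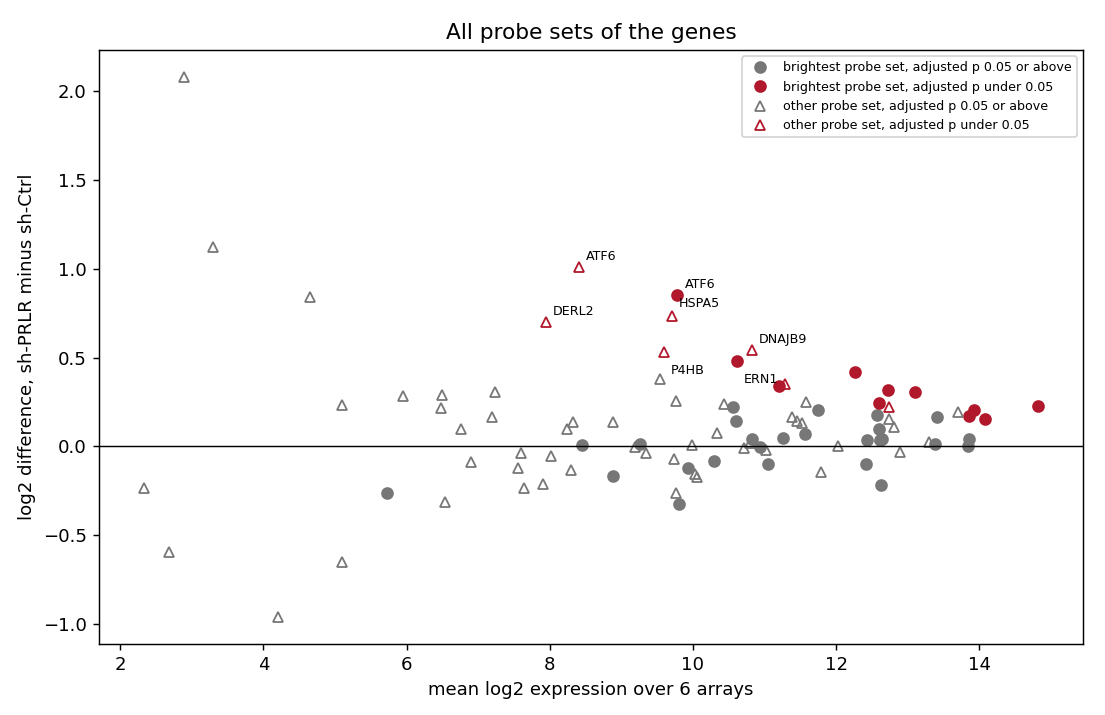
Log2 difference between sh-PRLR and sh-Ctrl against the mean log2 expression over 6 arrays, for all 95 probe sets of the 37 genes; filled circles are the brightest probe set of a gene, triangles the others, and red marks an adjusted p under 0.05. All 18 red symbols lie above 0, and grey symbols scatter widely at low expression.

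Other genes of the same pathways were read from a list by textbook role, of which 108 were measured. Of these 13 rose and 1 fell, which is 13.0% in either direction, with a median difference of 0.05. Over all genes 7.66% passed in either direction. Among genes above the median level, where 102 of the 108 lie, 14.6% passed, with 6.43% that rose and 8.17% that fell. The 11 genes of the PERK arm and the integrated stress response had 5 that rose. PPP1R15A, which restarts translation by dephosphorylating eIF2alpha, rose from 9.48 ± 0.20 to 10.25 ± 0.24 (limma adjusted p = 0.00617). DDIT3, the transcription factor CHOP, rose by 0.44 (limma adjusted p = 0.00414), TRIB3, a pseudokinase induced by it, by 0.29 (limma adjusted p = 0.00489), and ATF3 (0.49) and ATF4 (0.15) rose as well. EIF2AK3 itself, at the head of this arm, did not pass. The amino acid synthesis gene ASNS, another ATF4 target, was at 14.76 ± 0.09 and 14.76 ± 0.07.

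Among 23 further oxidoreductases and folding factors, 4 rose, including UGGT2, ERO1B and HSPA13. UGGT2, the paralog of UGGT1, rose from 10.89 ± 0.01 to 11.38 ± 0.07 (limma adjusted p = 0.000936). ERO1B, an oxidase that recharges disulfide isomerases, rose by 0.53 (limma adjusted p = 0.00190), and its paralog ERO1A differed by 0.0067. HSPA13, an ER-linked HSP70, rose by 0.30 (limma adjusted p = 0.00433). The contrast between paralogs was not tested. Of 19 further degradation genes UBXN4, a p97 adaptor, rose (0.19). Of 27 further translocation and glycan transfer genes 3 rose, among them SSR2 (0.30), of the same complex as SSR1, and SRPRA (0.35), a subunit of the signal recognition particle receptor. SEC11C, a catalytic subunit of the signal peptidase, fell from 11.82 ± 0.06 to 11.50 ± 0.06 (limma adjusted p = 0.00869). In either direction 5.26% of these degradation genes and 14.8% of these translocation and glycan transfer genes passed. The share among all genes above the median level was 14.6%. None of 17 COPII and retrieval genes or of 11 further transcription factor and protease genes passed. At an unadjusted p under 0.05 by limma's default settings, 0 of the former and 1 of the latter were higher, against 7.19% of all genes. Differences were above 0 in 14 of the 17 and in 7 of the 11, against 49.9% of all genes. Every sh-PRLR array lay above every sh-Ctrl array in 4 of the 17 and 3 of the 11, against 11.7% of all genes.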

How the data were processed

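The authors deposited log2 expression values for every probe set. Their processing notes name MAS5, RMA and affy, with no role or version given. Taken off the log scale, each array had a mean of 500 after trimming 2% at each end, as global scaling gives, and nothing was normalised again. Of 54675 probe sets, 41091 had 1 gene symbol in the platform annotation, and 62 control probe sets were left out.

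The comparison used limma 3.58.1, run in R 4.3.3 (lmFit, then eBayes with trend and robust), two-sided, with Benjamini-Hochberg adjustment over 19775 genes and a threshold of 0.05. Probe sets were tested in a separate fit over all 41091. "Rose" and "fell" mean past that threshold. The genes, lists and this choice of variance model were made with earlier results of these data known. All 37 genes are reported, and of the other lists up to 3 genes each with the smallest p (ATF3, ATF4, ASNS and ERO1A were added after their values were seen). The fit and the motif search were tested on simulated data. The labels number replicates alike in both groups without saying that they share a culture, so the fit has no block. Plots and the motif search used Python 3.11.15, with matplotlib 3.10.9 for the plots.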

Additional observations from a re-analysis of the deposited data

How the results depend on the processing

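The 11 genes that rose kept their direction in all 15 alternative settings in which each was tested, but not their calls. Of the 37 genes, 11 passed as higher with quantile normalisation, every probe set tested or the given settings. With the filter on dim genes 13 of 36 tested passed, and without _x_at and _s_at probe sets 9 of 31. Of the 37, 0 passed with default eBayes, 2 with median centring and 5 with the mean of all probe sets. Default eBayes after leaving out the 40% dimmest genes gave 4 of 36 (ERN1, ATF6, DNAJB9 and EDEM1, a setting chosen after seeing the data). The replicate block gave 7 of the 37 (CANX, HERPUD1, MANF and SEC61B were lost). Leaving out 1 array gave 4 to 10 higher and 0 to 1 lower (4 without sh-Ctrl replicate 2, 6 without sh-PRLR replicate 2, 7 without sh-Ctrl replicate 1), and the filter on dim genes gave 1 lower. Over all genes, same-numbered replicates did not deviate together (correlations of -0.024, 0.0044 and -0.012). These correlations take in the dim genes, whose values scatter widely, so they cannot show whether the numbers pair the arrays. Of the 108 other ER genes, 13 higher and 1 lower became 0 and 0 with default eBayes, 3 and 0 with median centring, 8 higher with default eBayes after the filter, 20 and 2 with the filter on dim genes, 7 to 11 and 1 to 2 when 1 array was left out (7 without sh-Ctrl replicate 1, 8 without sh-PRLR replicate 2), 2 lower with quantile normalisation or without _x_at and _s_at probe sets, and 0 lower with the mean of probe sets. The cause of these shifts was not tested.

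Changes of sign concerned 12 genes, 0 of them called. With quantile normalisation the difference was 0.0030 for UGGT1, -0.025 for P4HB and -0.013 for PDIA6. With median centring it was -0.029 for P4HB, -0.00055 for PDIA3, -0.018 for PDIA6, -0.022 for FKBP14 and -0.025 for EDEM2. With the mean of probe sets it was -0.084 for PDIA3 and -0.18 for SEL1L. Without _x_at and _s_at probe sets it was 0.17 for CREB3L2, 0.074 for PDIA4, -0.032 for PDIA6 and -0.012 for SPCS3. Leaving out 1 array gave ranges of -0.037 to 0.088 for EIF2AK3, -0.051 to 0.036 for UGGT1, -0.044 to 0.055 for P4HB, -0.040 to 0.10 for PDIA3, -0.034 to 0.062 for PDIA6, -0.031 to 0.055 for FKBP14, -0.044 to 0.10 for EDEM2 and -0.0048 to 0.094 for DERL2. PRLR, which is among the 40% dimmest genes, stayed below 0 without passing in every setting that kept it, from -0.39 to -0.024 when 1 array was left out. The number of arrays limits all values, and 0.15 was the smallest difference called among the 37 genes.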
